A study of Homo sapiens with 6 samples.

Results

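The VEGF ligand genes VEGFA, VEGFB and VEGFC, the hypoxia-inducible factor gene HIF1A and 6 hypoxia target genes (CA9, ADM, NDRG1, SLC2A1, BHLHE40 and PGK1) were followed in SiHa cells, an established line from a human squamous carcinoma of the cervix. A member was the row of the deposited table whose gene name, or any of the names joined in it, equals the symbol, and 10 of 10 members were found among 35544 loci. PolyA RNA was sequenced from cells transfected with an empty vector plasmid (3 libraries) or with a plasmid carrying hsa_circ_0005358, a circular RNA (3 libraries), collected after 72 h. The labels name no oxygen treatment, spell the circular RNA in several ways that were taken as the same RNA, and do not say whether libraries came from separate cultures. The p-values therefore rest on the variation among these libraries alone, and that variation may be technical. The row of HIF1A joins 3 names, among them the protein-coding neighbour SNAPC1, and the row of SLC2A1 joins the noncoding AC099795.1, so these values are not of the named gene alone.

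Cells sense oxygen through hypoxia-inducible factors, pairs of an alpha subunit such as HIF1A and the stable partner ARNT. With oxygen present, prolyl hydroxylases of the EGLN family mark the alpha subunit for VHL, which directs its destruction, so HIF1A is controlled largely at the protein level. Without oxygen the pair binds short hypoxia response elements and raises genes of glucose uptake, glycolysis, pH control and vessel growth. VEGFA is the main endothelial growth factor of this response, VEGFC acts mostly on lymphatic vessels, and VEGFB is a ligand of the receptor FLT1. Tumour cells secrete these ligands, while the receptors FLT1, KDR and FLT4 belong mainly to endothelial cells.

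The members that passed the test did not all move the same way. VEGFA, VEGFC and BHLHE40 fell with the circular RNA plasmid and NDRG1 rose, while HIF1A, ADM, PGK1, SLC2A1 and VEGFB did not pass the test and CA9 was too low to be tested. Of 10 members, 9 passed the filter on low values (FPKM of at least 1 in at least 3 libraries), and of these 1 rose and 3 fell at an adjusted p of 0.05 (limma, Benjamini-Hochberg over all loci tested). Over all 10295 tested loci 11.4% were called, 6.41% higher and 4.96% lower. FPKM counts fragments relative to the length of the transcript and the size of the library, and fold changes are differences of log2(FPKM + 1), which understates the change of low genes. The median log2 fold change of the 9 tested members was -0.14, against 0.02 over all tested loci, and the median size of the change without its sign was 0.53, against 0.17. The groups did not overlap for 6 of the 9 tested members, 4 of them lower and 2 higher, against 35.8% of all tested loci (15.9% lower and 19.8% higher). For single members the exact two-sided permutation test of 3 against 3 libraries cannot go below p = 0.1, which every member whose groups did not overlap reached. In bulk RNA, fewer cells with a transcript and less of it per cell cannot be told apart.

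**Figure D1:**
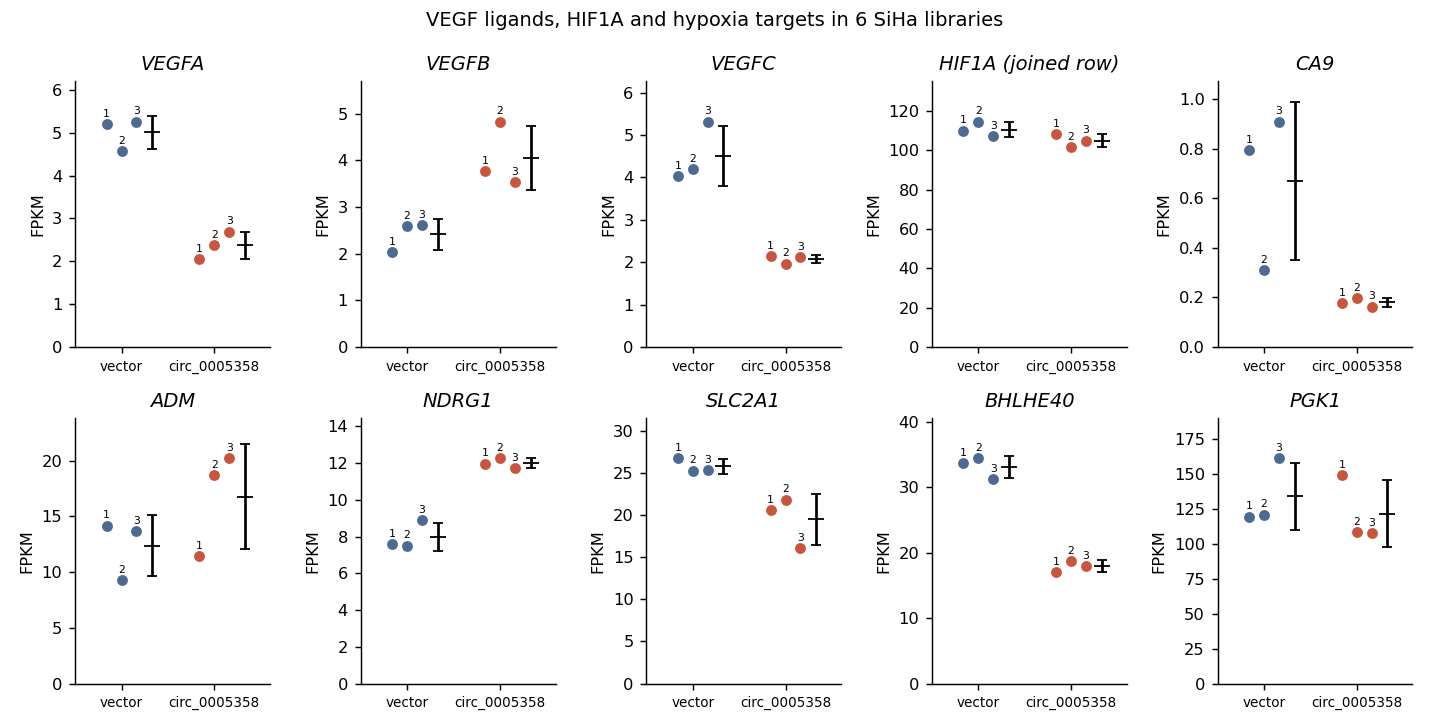
FPKM (y axis, from 0) of each member in the 3 vector libraries (blue) and the 3 libraries with the circular RNA plasmid (red); digits are replicate numbers and the black mark is the mean ± SD (n = 3). VEGFA, VEGFC, BHLHE40, SLC2A1 and CA9 are lower in every red point than in any blue point, VEGFB and NDRG1 are higher, and HIF1A, ADM and PGK1 overlap.

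Across the series, circ_0005358 replicate 2 was the shallowest library, at 70.7% of the largest implied depth, and the others lay between 93.3% and 100%; vector replicate 3 listed 27803 loci above 0 and the others 23227 to 23834. Of 8 epithelial markers with a row of their own, 7 were tested and 6 fell, and their summed level was 1281 to 1352 FPKM with vector and 631 to 716 FPKM with circ_0005358. KRT7, KRT8, KRT17 and KRT18 made up most of this sum and were present in every library. CDH1 fell from 13.8 to 0.958 FPKM, and CDKN2A, the tested marker that did not fall, averaged 15.8 and 17.6 FPKM. TP63 was untested and at most 0.254 FPKM. The row that joins KRT5 with KRT6A, not counted here, averaged 10.2 and 1.10 FPKM. The 5 endothelial markers summed to 0.28 to 0.893 FPKM with vector and 0.381 to 0.419 FPKM with circ_0005358, and 0 of 5 reached the filter. The 6 fibroblast markers summed to 7.06 to 10.6 and 2.67 to 3.12 FPKM, with LUM the only 1 tested. LUM, at means of 7.47 and 1.43 FPKM, makes up most of that sum, while COL3A1 (0.109 and 0.821 FPKM), PDGFRB (0.0949 and 0.225 FPKM) and DCN (0.156 and 0.205 FPKM) were untested, with every circ_0005358 library above every vector library. The 5 leukocyte markers summed to 10.4 to 13.4 and 1.48 to 16.4 FPKM, mostly CD14, while PTPRC stayed at or below 0.0605 FPKM. The part of the differences in epithelial markers and in LUM in the results below was not tested.

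Hypoxia response elements share the core ACGTG or GCGTG, and the start regions of 5 members are shown so that this core can be seen in genes that were lower, higher or overlapping between the groups. Windows from 250 bases before to 50 bases after each start were taken from RefSeq (GRCh38.p14), and 8 of 10 members matched, HIF1A with 2 windows. VEGFA and NDRG1 had no entry. Bases just after the start were sought near the opening of the GENCODE 29 transcripts of each gene. They were found in 0 transcripts of VEGFB and 0 of VEGFC. The VEGFC window lies wholly before the start of VEGFC in GENCODE 29 (176792727, minus strand). For VEGFB and VEGFC the place of the window relative to the start is therefore uncertain. The windows of ADM, SLC2A1, BHLHE40 and PGK1, and the second of HIF1A, lie wholly after the outermost GENCODE 29 start of the gene. For each of these genes the bases just after the start were found in at least 1 transcript. Distances given below are from the RefSeq start. The windows lie at chr11:64234334-64234633 (plus strand, VEGFB), chr4:176792873-176793172 (minus strand, VEGFC), chr9:35673678-35673977 (plus strand, CA9), chr3:4979187-4979486 (plus strand, BHLHE40) and chrX:78103998-78104297 (plus strand, PGK1). They are printed 5′ to 3′ on the strand of the gene, with the core in capitals where it occurs on either strand (CACGT and CACGC are its forms on the opposite strand). BHLHE40 and PGK1 were added after their values were seen.
VEGFB: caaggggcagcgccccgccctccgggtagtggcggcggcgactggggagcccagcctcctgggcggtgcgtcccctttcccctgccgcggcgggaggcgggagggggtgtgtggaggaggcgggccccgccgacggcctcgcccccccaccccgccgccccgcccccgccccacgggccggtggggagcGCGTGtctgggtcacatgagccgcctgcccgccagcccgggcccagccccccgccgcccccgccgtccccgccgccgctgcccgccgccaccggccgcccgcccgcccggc
VEGFC: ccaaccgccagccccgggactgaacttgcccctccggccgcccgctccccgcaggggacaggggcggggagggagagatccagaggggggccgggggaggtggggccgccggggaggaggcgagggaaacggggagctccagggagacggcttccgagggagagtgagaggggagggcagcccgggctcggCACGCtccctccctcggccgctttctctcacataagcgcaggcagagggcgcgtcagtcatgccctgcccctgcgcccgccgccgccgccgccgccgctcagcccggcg
CA9: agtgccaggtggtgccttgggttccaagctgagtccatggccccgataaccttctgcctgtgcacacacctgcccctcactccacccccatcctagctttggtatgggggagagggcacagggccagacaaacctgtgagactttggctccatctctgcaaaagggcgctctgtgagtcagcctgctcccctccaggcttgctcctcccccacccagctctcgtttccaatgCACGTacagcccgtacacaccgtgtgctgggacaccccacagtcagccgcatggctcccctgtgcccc
BHLHE40: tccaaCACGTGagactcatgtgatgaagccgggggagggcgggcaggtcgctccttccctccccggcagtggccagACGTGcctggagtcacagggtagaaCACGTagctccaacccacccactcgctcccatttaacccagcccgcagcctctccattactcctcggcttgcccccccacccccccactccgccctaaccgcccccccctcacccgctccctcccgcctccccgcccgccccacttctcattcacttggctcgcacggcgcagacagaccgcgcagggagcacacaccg
PGK1: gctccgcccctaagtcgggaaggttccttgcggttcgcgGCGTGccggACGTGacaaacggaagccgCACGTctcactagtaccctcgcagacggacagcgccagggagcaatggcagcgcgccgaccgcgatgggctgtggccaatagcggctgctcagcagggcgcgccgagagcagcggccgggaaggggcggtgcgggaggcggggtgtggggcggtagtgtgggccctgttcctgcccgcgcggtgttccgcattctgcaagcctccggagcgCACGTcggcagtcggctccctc
At least 1 core was found in 8 of the 9 windows, the exception being the second window of HIF1A, against 48.4% of 35116 windows of the same length. The windows with a core held 62% (CA9) to 84.7% (VEGFB) G and C, and the second window of HIF1A held 31.7%. The comparison with all windows was not matched for this content. ACGTG alone stood in 3 member windows and in 21.4% of all windows, and GCGTG in 6 and in 36.5%. CA9 had a single ACGTG, on the opposite strand with its leftmost base 18 bases before the start. BHLHE40 and PGK1 had 4 matches each, and 2 of those of BHLHE40 are the strands of a single CACGTG, a sequence found in 7.26% of all windows. VEGFB, VEGFC, ADM and SLC2A1 had 1 GCGTG each. Of the windows with the most matches, that of BHLHE40 belongs to a gene that fell and that of PGK1 to a gene whose groups overlapped. A match is only a run of letters and was not tested for binding.

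Among the ligands, VEGFA (ENSG00000112715, chromosome 6 from 43770184 to 43786487, plus strand, GRCh38) stood at 5.21, 4.57 and 5.26 FPKM under vector, against 2.06, 2.37 and 2.69 FPKM under circ_0005358. Every library with the circular RNA plasmid lay below every vector library. Its level fell from 5.01 ± 0.387 to 2.38 ± 0.319 FPKM (SD, n = 3 each), a ratio of 0.474 (log2 fold change -0.84, standard error 0.096, limma adjusted p = 0.00643). The row pools 30 transcripts, so the splice forms of VEGFA, cannot be told apart. The VEGFA call was lost without the pair of doubted libraries, vector replicate 3 and circ_0005358 replicate 2 (limma adjusted p = 0.099), although the log2 fold change was then -0.81. The limma adjusted p of VEGFA ranged from 0.00578 to 0.099 among all its alternatives.

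VEGFC (ENSG00000150630, chromosome 4 from 176683538 to 176792727, minus strand), the lymphatic ligand, stood at 4.02, 4.19 and 5.31 FPKM under vector, against 2.15, 1.97 and 2.11 FPKM under circ_0005358. The groups were apart, and vector replicate 3 was the highest library. The level fell from 4.51 ± 0.703 to 2.08 ± 0.0972 FPKM (SD, n = 3 each), a ratio of 0.461 close to that of VEGFA (log2 fold change -0.83, standard error 0.10, limma adjusted p = 0.00855). Without these doubted libraries the log2 fold change of VEGFC was -0.70 and its limma adjusted p was 0.0504. The adjusted p ranged from 0.00618 to 0.0594 among all alternatives.

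VEGFB (ENSG00000173511, chromosome 11 from 64234538 to 64238793, plus strand) stood at 2.03, 2.6 and 2.62 FPKM under vector, against 3.77, 4.83 and 3.54 FPKM under circ_0005358. It was higher in 3 of 3 libraries than in any vector library, with means of 2.41 ± 0.336 and 4.05 ± 0.69 FPKM (SD, n = 3 each) and a ratio of 1.68. The log2 fold change of 0.56 had a 95% interval of 0.24 to 0.88, and the call missed the threshold (limma adjusted p = 0.0513). After quantile normalization the adjusted p was 0.0429, the only alternative of 15 that passed, and the highest was 0.154.

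The make-up of the ligand pool therefore differed between the groups, which is given as a description with no test. VEGFB made up 18.0%, 22.9% and 19.9% of the summed FPKM of the 3 ligands with vector and 47.3%, 52.7% and 42.4% with circ_0005358. The share of VEGFA was 42.1% ± 3.59 with vector and 28.0% ± 3.73 with circ_0005358, and that of VEGFC was 37.6% ± 2.36 and 24.6% ± 2.83 (SD, n = 3 each). VEGFB was the lowest of the 3 ligands in each vector library and the highest in each library with the circular RNA plasmid. The level of VEGFA divided by that of VEGFB was 2.57, 1.76 and 2.01 with vector and 0.545, 0.491 and 0.762 with circ_0005358. VEGFC divided by VEGFA was 0.772, 0.917 and 1.01 with vector and 1.05, 0.828 and 0.785 with circ_0005358, so these values overlapped. The summed level was 11.9 ± 1.09 FPKM under vector, against 8.50 ± 0.611 FPKM under circ_0005358 (SD, n = 3 each).

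**Figure D2:**
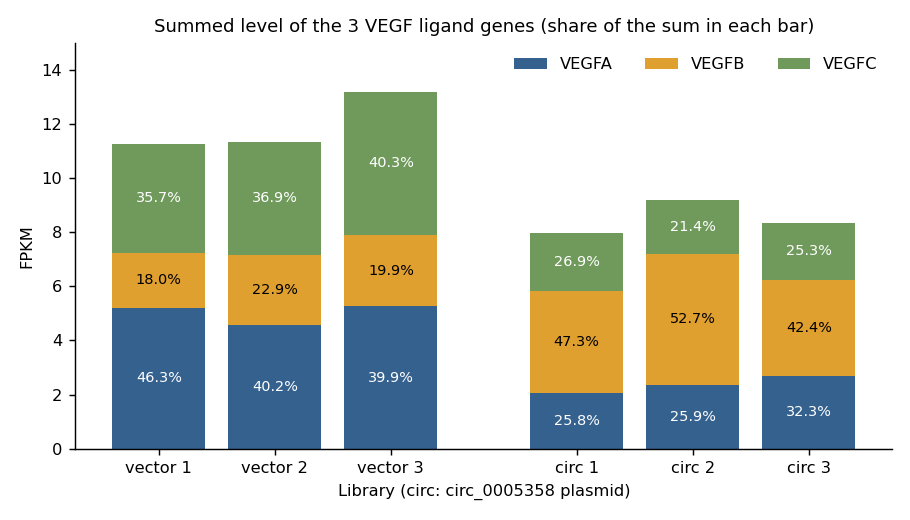
Stacked bars of the FPKM of VEGFA, VEGFB and VEGFC (y axis, from 0) in each library, with each ligand's share of the sum printed in its segment. The VEGFB segment holds 18.0% to 22.9% of the sum in the vector libraries and 42.4% to 52.7% in the libraries with the circular RNA plasmid, while the full bars are lower there.

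The remaining ligand genes were near the bottom of the scale. PGF, another FLT1 ligand, was at most 0.0322 FPKM and VEGFD at most 0.139 FPKM in any library. The receptor genes FLT1, KDR and FLT4 were at most 0.073, 0.0933 and 0.29 FPKM, each highest in vector replicate 3. Of the co-receptors, NRP1 was tested and averaged 4.90 ± 0.931 FPKM under vector, against 3.71 ± 0.559 FPKM under circ_0005358 (SD, n = 3 each; log2 fold change -0.32, limma adjusted p = 0.257). NRP2 was untested, at 0.2, 0.14 and 0.197 FPKM under vector, against 0.249, 0.524 and 0.46 FPKM under circ_0005358. Every circ_0005358 library thus lay above every vector library for NRP2, and below every vector library for PGF. Among these 7 genes 1 was tested and 0 passed, also 0 at an unadjusted p under 0.05 (limma).

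The row with HIF1A (ENSG00000100644, chromosome 14 from 61695513 to 61748259, plus strand) was among the most abundant of the members, at 110.2, 115 and 107 FPKM with vector and 108, 102 and 105 FPKM with circ_0005358. These values overlapped, with means of 111 ± 3.81 and 105 ± 3.45 FPKM (SD, n = 3 each). The log2 fold change of -0.07 had a 95% interval of -0.20 to 0.05 (limma adjusted p = 0.42). Since SNAPC1 starts at 61762357 on the same strand and shares the row, a change of HIF1A offset by SNAPC1 would not be visible.

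Among the other subunits and regulators of the factor, 10 of 12 genes had a row without another coding gene and 8 were tested, of which 1 fell and 0 rose (limma; 2 lower and 0 higher at an unadjusted p under 0.05), with a median log2 fold change of -0.05. EGLN3, a prolyl hydroxylase that is itself a hypoxia target, fell, with means of 1.80 ± 0.147 and 0.48 ± 0.143 FPKM (SD, n = 3 each; log2 fold change -0.92, limma adjusted p = 0.00478). EGLN3 reached the filter only through the vector libraries, so the filter itself favoured a fall. Its call, the only 1 of this list, is therefore not independent of the filter. Without any single vector library EGLN3 no longer reached the filter and could not be tested. Its adjusted p was 0.00363 to 0.0572 among the alternatives that could test it. EGLN1, the main oxygen sensor of the family, averaged 4.36 FPKM under vector, against 3.44 FPKM under circ_0005358, with groups that did not overlap (limma adjusted p = 0.0725). EPAS1, the second HIF alpha subunit, averaged 35.7 and 33.1 FPKM with overlapping groups. CITED2, which competes with the alpha subunits for coactivators, stood at 12.3, 2.44 and 9.74 FPKM under vector, against 14.8, 15.2 and 14.4 FPKM under circ_0005358 (limma adjusted p = 0.284), the vector libraries being spread widely. CREBBP, a coactivator, averaged 7.29 and 6.23 FPKM with overlapping groups (limma adjusted p = 0.393).

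The hypoxia targets split. BHLHE40 (ENSG00000134107, chromosome 3 from 4979116 to 4985323, plus strand), a transcriptional repressor of the circadian and hypoxia responses, stood at 33.8, 34.4 and 31.2 FPKM under vector, against 17.0, 18.8 and 18.0 FPKM under circ_0005358. The libraries were close within each group and far apart between them. The level fell from 33.1 ± 1.68 to 17.9 ± 0.883 FPKM (SD, n = 3 each), a ratio of 0.541 (log2 fold change -0.85, standard error 0.065, limma adjusted p = 0.00175). BHLHE40 was past the threshold under all 16 alternatives (limma adjusted p from 0.00132 to 0.0359), the only member called in the main test for which this held.

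NDRG1 (ENSG00000104419, chromosome 8 from 133237171 to 133302022, minus strand), a stress-responsive gene linked to metastasis suppression, stood at 7.58, 7.51 and 8.88 FPKM under vector, against 12.0, 12.3 and 11.7 FPKM under circ_0005358. All 3 libraries with the circular RNA plasmid lay above the vector libraries. The level rose from 7.99 ± 0.773 to 12.0 ± 0.259 FPKM (SD, n = 3 each), a ratio of 1.5 (log2 fold change 0.53, standard error 0.077, limma adjusted p = 0.0129). The NDRG1 call was lost on leaving out vector replicate 1 (adjusted p = 0.0551), vector replicate 2 (0.0558), circ_0005358 replicate 3 (0.0506) or the doubted pair (0.0505), over a range of 0.0105 to 0.0876 among all alternatives. Without the doubted pair the log2 fold change of NDRG1 was 0.59.

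SLC2A1 (ENSG00000117394, chromosome 1 from 42925375 to 42959176, minus strand), the glucose transporter GLUT1, stood at 26.7, 25.3 and 25.3 FPKM under vector, against 20.6, 21.8 and 16 FPKM under circ_0005358. It was lower in 3 of 3 libraries, but replicate 3 stood apart from the other libraries of its group and SLC2A1 did not pass the test. Its means were 25.8 ± 0.839 and 19.5 ± 3.05 FPKM (SD, n = 3 each), and the log2 fold change of -0.40 had a 95% interval of -0.70 to -0.10 (limma adjusted p = 0.101).

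CA9 (ENSG00000107159, chromosome 9 from 35673856 to 35681159, plus strand), a cell surface carbonic anhydrase widely used as a hypoxia marker, was at 0.795, 0.309 and 0.911 FPKM under vector, against 0.178, 0.197 and 0.163 FPKM under circ_0005358. It was the lowest of the members in both groups, and vector replicate 2 was much nearer to the libraries with the circular RNA plasmid than the other vector libraries were. The means were 0.672 ± 0.319 and 0.18 ± 0.017 FPKM (SD, n = 3 each), a ratio of 0.267. CA9 lay below the filter, and with no filter the log2 fold change was -0.48 (limma adjusted p = 0.32). At a pseudocount of 0.1 the difference was -1.36, since the added constant weighs heavily at this level.

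ADM (ENSG00000148926, chromosome 11 from 10304680 to 10307397, plus strand), the gene of the vasodilator peptide adrenomedullin, was at 14.2, 9.27 and 13.7 FPKM under vector, against 11.4, 18.7 and 20.2 FPKM under circ_0005358. The groups overlapped through circ_0005358 replicate 1. The log2 fold change of 0.39 had a 95% interval of -0.26 to 1.05 (limma adjusted p = 0.399). The ADM value was 0.21 without vector replicate 2, 0.25 without circ_0005358 replicate 3 and 0.63 without circ_0005358 replicate 1, and was not called in any of these (limma adjusted p from 0.148 to 0.683 over all alternatives). Of the parts of its receptor, CALCRL was at most 0.0198 FPKM, and RAMP1 averaged 1.46 ± 0.181 FPKM under vector, against 0.718 ± 0.264 FPKM under circ_0005358 (SD, n = 3 each). RAMP1 had groups that did not overlap and was the only part tested (log2 fold change -0.53, limma adjusted p = 0.064). RAMP1 reached the filter only through the vector libraries, so the filter itself favoured a lower value. Without any single vector library RAMP1 could not be tested. It passed with library weights (adjusted p = 0.0456) and without circ_0005358 replicate 2 (0.0457), over a range of 0.0456 to 0.195.

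PGK1 (ENSG00000102144, chromosome X from 77910739 to 78129296, plus strand), a glycolytic kinase, stood at 119, 121 and 161 FPKM under vector, against 149, 108 and 107 FPKM under circ_0005358. A single high library in each group, vector replicate 3 and circ_0005358 replicate 1, made the groups overlap. The means were 134 ± 23.6 and 121 ± 23.8 FPKM (SD, n = 3 each), and the log2 fold change of -0.14 had a 95% interval of -0.59 to 0.31 (limma adjusted p = 0.674).

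**Figure D3:**
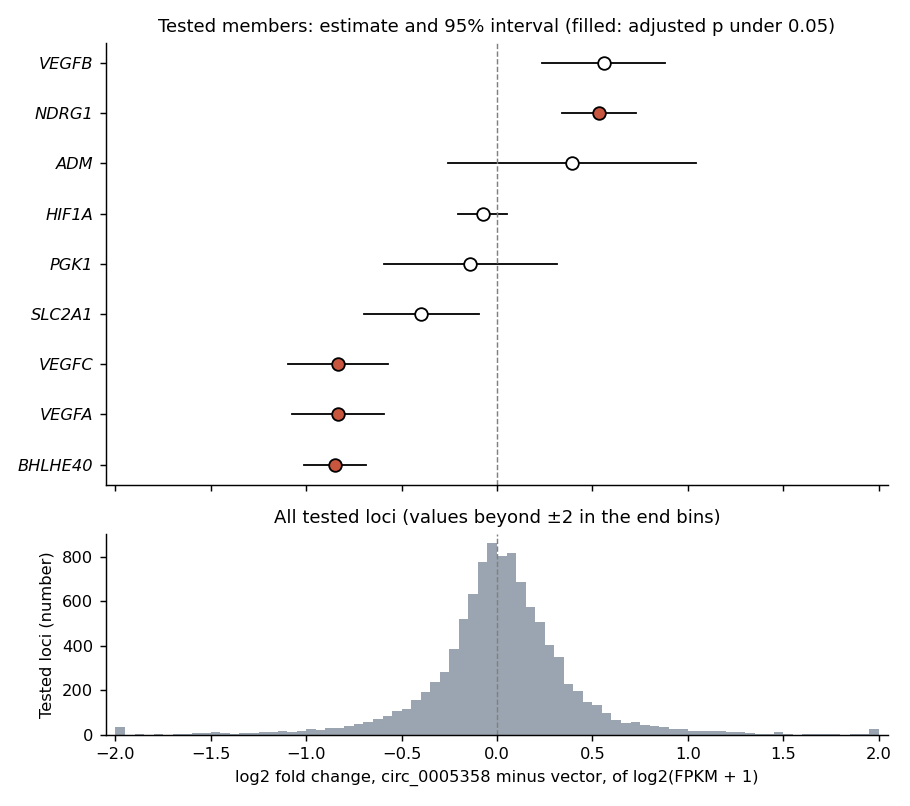
Upper panel: log2 fold change (x axis, circ_0005358 minus vector, of log2(FPKM + 1)) with its 95% interval for the 9 tested members, filled where the adjusted p is under 0.05; lower panel: the number of all 10295 tested loci at each log2 fold change. BHLHE40, VEGFA and VEGFC lie between -0.85 and -0.83 and NDRG1 at 0.53, while the bulk of all loci lies around 0.02.

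The order of the members by FPKM also differed between groups. With vector, PGK1 came first, then the joined HIF1A row, BHLHE40, SLC2A1, ADM, NDRG1, VEGFA, VEGFC, VEGFB and CA9. Of these neighbours, only VEGFA and VEGFC had ranges that overlapped. With circ_0005358, BHLHE40 came after SLC2A1 and VEGFB before VEGFA, and the ranges of PGK1 and HIF1A, SLC2A1 and BHLHE40, BHLHE40 and ADM, ADM and NDRG1, and VEGFA and VEGFC overlapped. PGK1 lay at percentile 99.0 of the mean level of tested loci and VEGFA, VEGFC and VEGFB at percentiles 34.0, 30.8 and 30.2.

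Other hypoxia targets, outside the members, also went both ways. Of 29 genes 27 had a row without another coding gene and 22 were tested, and 1 rose and 3 fell, with a median log2 fold change of -0.18 against 0.02 over all tested loci. STC1 and STC2 encode the related stanniocalcin glycoprotein hormones and moved in opposite directions. STC1 stood at 3.41, 4.11 and 3.79 FPKM under vector, against 12.6, 13.1 and 11.5 FPKM under circ_0005358 (log2 fold change 1.49, limma adjusted p = 0.000771). STC2 stood at 9.59, 8.79 and 10.4 FPKM under vector, against 3.36, 3.58 and 3.25 FPKM under circ_0005358 (log2 fold change -1.27, limma adjusted p = 0.000947). PLOD2, a collagen lysyl hydroxylase, fell, with means of 66.0 ± 2.42 and 42.2 ± 1.10 FPKM (SD, n = 3 each; limma adjusted p = 0.0021). FAM162A, the gene of a mitochondrial protein, fell from 4.62 to 2.64 FPKM (limma adjusted p = 0.0193). The FAM162A call was lost with no filter (0.056), on leaving out vector replicates 1, 2 or 3 (0.0582, 0.0722 and 0.0639), circ_0005358 replicate 2 (0.0586) or the doubted pair (0.146), over a range of 0.0165 to 0.146 among all alternatives. STC1, STC2 and PLOD2 were past the threshold under all 16 alternatives.

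Of 20 genes of glycolysis and lactate handling, 17 had a row without another coding gene and 16 were tested, and 1 rose and 2 fell, with a median log2 fold change of -0.01. PFKL, the liver form of phosphofructokinase, rose, with means of 10.6 ± 0.697 and 18.7 ± 1.46 FPKM (SD, n = 3 each; log2 fold change 0.76, limma adjusted p = 0.00501) and passed under all 16 alternatives. PFKM, the muscle form, averaged 6.52 and 8.20 FPKM and missed the threshold (limma adjusted p = 0.0506, over a range of 0.0421 to 0.169). GAPDH fell, with means of 1179 ± 36.5 and 948 ± 38.0 FPKM (SD, n = 3 each; log2 fold change -0.31, limma adjusted p = 0.0203), and ENO2, the neuronal enolase, from 2.86 to 1.05 FPKM (limma adjusted p = 0.0487). ENO2 reached FPKM 1 in every vector library but, with circ_0005358, in replicate 1 alone, so the filter itself favoured a fall. The ENO2 call was lost when any single library was left out (adjusted p from 0.0611 to 0.137), without the doubted pair (0.137) and with no filter (0.132), over a range of 0.0407 to 0.144 among all alternatives. The GAPDH call was lost without each single library except circ_0005358 replicate 2 (0.0584, 0.062 and 0.0729 for vector replicates 1, 2 and 3; 0.0638 and 0.0936 for circ_0005358 replicates 1 and 3). It was also lost with quantile normalization (0.277), without the doubted pair (0.1005) and with no filter (0.299), over a range of 0.0108 to 0.299 among all alternatives.

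**Figure D4:**
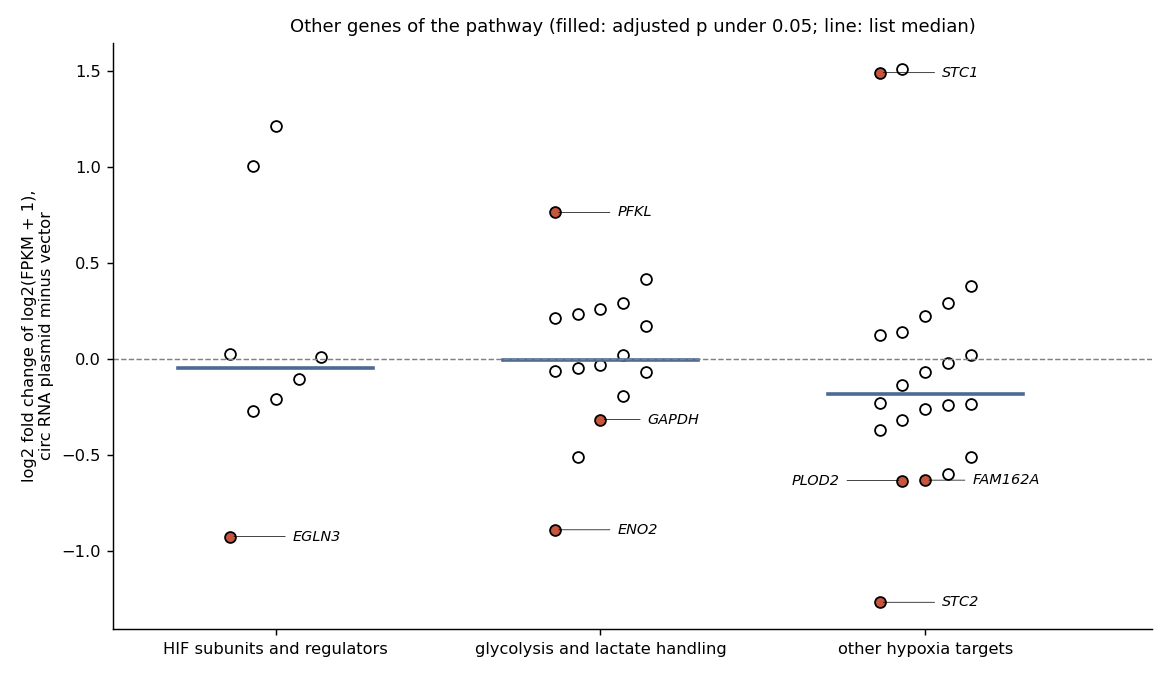
Log2 fold change (y axis, circ_0005358 minus vector, of log2(FPKM + 1)) of each tested gene of 3 lists, with genes past an adjusted p of 0.05 filled and named and the list median as a line. The medians lie at -0.05, -0.01 and -0.18, and filled points stand on both sides of 0 among the glycolysis genes and the other hypoxia targets.

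The annotation in the deposited table links 9 of 10 members to hypoxia, through the terms response to hypoxia (6 members), cellular response to hypoxia (4) or the HIF-1 signaling pathway (4), and BHLHE40 carries none of these. Among the other loci with response to hypoxia, 97 were tested, and 13 rose and 4 fell, a share of 17.5%. For cellular response to hypoxia, 3 of 69 rose and 8 fell (15.9%), and for the HIF-1 signaling pathway 4 of 65 rose and 6 fell (15.4%). For the VEGF signaling pathway, carried by VEGFA alone among the members, 1 of 41 rose and 4 fell (12.2%). The share over all tested loci was 11.4%. With the members left out, the median log2 fold changes under these 4 terms were 0.11, 0.03, 0.02 and 0.03, against 0.02 over all tested loci. More called loci rose than fell under response to hypoxia, and more fell than rose under the other terms. These differences were not tested.

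Over the 6 libraries the loci most like VEGFA were MARCKSL1 (Pearson r = 0.998), IMPDH2 (0.998) and DCAF4 (0.994), of 9287 tested loci with a single name. MARCKSL1 averaged 36.7 FPKM under vector, against 22.0 FPKM under circ_0005358, IMPDH2 38.9 and 33.4 FPKM, and DCAF4 1.32 and 0.843 FPKM. DCAF4 reached the filter only through the vector libraries, so the filter itself favoured a lower value. The points share 2 groups of 3 libraries, so a correlation here reflects mainly the difference between groups, and 288 loci had r above 0.95.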

How the data were processed

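PolyA RNA of 6 SiHa libraries was measured, 3 with vector and 3 with the circular RNA plasmid. The authors deposited FPKM values for 35544 loci and no read counts. Trimmomatic, HISAT2 and the build hg19 were used, per the submitters' processing notes; not given in the sources used here are versions, the FPKM program, strand and annotation. Positions are from GENCODE 29 (GRCh38). All value columns matched a sample.

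limma 3.58.1 (R 4.3.3), with its trend option, tested log2(FPKM + 1) of loci that reached FPKM 1 in 3 or more libraries, two-sided, threshold 0.05. Single values were compared with exact permutation tests (scipy 1.17.1). The fit was tested on simulated log2 values of 10295 loci, with 50 loci changed at each size. It called 22 of 50 at 1.5-fold, 34 at 2-fold, 41 at 3-fold and 45 at 4-fold, and 14 unchanged loci. Many changes of 1.5-fold were therefore missed. Depth was estimated at 16600000 to 23400000 fragments per library, from the smallest steps of 17982 loci that hold 1 transcript, and no counting interval was drawn. All members are named, with list genes past the threshold or among the 4 smallest p of a list, and the 3 loci most like VEGFA; list genes whose row joins another coding gene were not counted. Other genes named were chosen after their values were seen. Members and lists were chosen with earlier results of these data known, so the count of members called is not independent evidence. Alternatives were pseudocounts of 0.1 and 0.5, no filter, FPKM of at least 5, rescaling to the same sum, quantile normalization, a replicate block, no trend, weighted libraries and omission of each library; omission of the pair vector replicate 3 and circ_0005358 replicate 2 was added after the data were seen.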

Additional observations from a re-analysis of the deposited data

How the results depend on the processing

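The number of changed loci, 1171, was 591 with no filter on low values, 485 to 761 with a single library left out and 198 without the pair vector replicate 3 and circ_0005358 replicate 2. The number of members that rose, 1, was 2 with quantile normalization (VEGFB passed), 0 to 1 with a single library left out and 0 without this pair, where 2 were higher at an unadjusted p under 0.05 (limma). The number that fell, 3, was 1 under the filter at FPKM 5, since VEGFA and VEGFC were then not tested, 1 without this pair, and 3 in each case with a single library left out. No tested member changed sign while called; PGK1, never called, changed sign in 2 alternatives. Of 160 counts for the pathway lists under the alternatives, 131 stayed within 1.5 times and 29 moved. Same-numbered libraries of the groups had correlations of their deviations from the group means of 0.064, 0.048 and 0.078, so the numbers were not taken to pair the samples, although each library correlated best with its own number. With the replicate number as a block, 259 loci changed, and 0 members rose and 1, BHLHE40, fell (2 and 4 at an unadjusted p under 0.05, limma). The block ended the calls of VEGFA (limma adjusted p = 0.0569), VEGFC (0.0594), NDRG1 (0.0876), EGLN3 (0.0572), FAM162A (0.0777), GAPDH (0.112) and ENO2 (0.144); the cause was not tested. FPKM without counts leaves the sampling error of low genes such as CA9 unknown.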

Other observations

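Some pathway genes, chosen after their values were seen, varied several-fold between libraries of the same group. VHL, which directs the destruction of HIF alpha subunits, stood at 3.06, 1.96 and 27.7 FPKM under vector, against 28.8, 4.52 and 24.9 FPKM under circ_0005358, so high and low libraries were found in both groups. HIF1AN, the asparagine hydroxylase that limits HIF activity, was at 8.65 FPKM in vector replicate 3 and 8.69 FPKM in circ_0005358 replicate 3, and 2.75 to 3.58 FPKM elsewhere. PGAM1, a glycolytic mutase, stood at 161, 50.1 and 159 FPKM under vector, against 58.3, 150.3 and 50.3 FPKM under circ_0005358. LOX, a collagen cross-linking enzyme, was at 18.5 FPKM in circ_0005358 replicate 3 and between 4.0 and 5.80 FPKM elsewhere. DDIT4, an inhibitor of mTOR signalling, stood at 101, 33.8 and 24.6 FPKM under vector, against 112, 136 and 134 FPKM under circ_0005358 (log2 fold change 1.51, limma adjusted p = 0.136), so its groups did not overlap although the vector libraries differed widely.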
